A study of Mus musculus with 8 samples.

Results

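The 9 genes described here, Mbp, Mog, Mag, Mobp, Cnp, Cldn11, Opalin, Ermn and Mal, encode proteins of the myelin sheath or of the mature oligodendrocytes that make it. They were taken as the rows of the count table whose symbol matched one of these names exactly, and all 9 had a single row among 25815 genes. All 9 passed the filter on low counts, which left 16810 genes for testing. The data are RNA-seq read counts from total brain of mice 50 days after birth. The mutant group, D50A, held 5 libraries with the genotype Cstf2D50A, in which alanine replaces aspartate in the RNA-binding part of CSTF2, a cleavage stimulation factor subunit used in forming mRNA 3' ends. The control group, WT, held 3 wild-type littermates. Both groups came from 1 untreated colony with the strain background C57BL/6NCrl, made by 4 generations of backcrossing and then bred within the colony. No label limits the allele to oligodendrocytes. Library numbers follow the order of deposit.

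Oligodendrocytes wrap axons of the central nervous system with layers of their own membrane. In compact myelin the layers are pressed together by basic proteins such as MBP, and in the remaining cytoplasm-filled channels and at the inner and outer faces lie enzymes and adhesion molecules such as CNP, MAG and MOG. Transcription of these genes depends on SOX10 and MYRF, and their mRNAs are among the most abundant in white matter. In bulk brain RNA, a lower number of oligodendrocytes and less mRNA per oligodendrocyte cannot be told apart.

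RefSeq promoter windows on GRCm38.p6 (the assembly of mm10), 250 bases before to 50 after a transcription start, were matched by symbol for 8 of the 9 genes. Both strands were searched for the letters CTGGCAC or CTGGTAC, a published MYRF core, and for ACAAAG or ACAATG, a SOX core. The MYRF letters were present in 4 of the 8 genes, Mog, Mag, Cnp and Opalin, against 8.1% of 27025 genes with such windows. The SOX letters were present in 5 of the 8, Cnp, Ermn, Mag, Mobp and Opalin, against 31.7% of genes. An E-box, CAGCTG, was found in Opalin only, against 18.3% of genes. A match describes letters in a window and is not a measured binding site. The 250 bases before the start of 4 genes are printed because Mog and Mobp had 2 of the 4 highest ratios to WT in library D50A 3, Cnp lay between, and Mag was the single gene of the 9 that was lower there, as described further on. They lie at chr17:37023399-37023648 on the minus strand for Mog, chr7:30914864-30915113 on the minus strand for Mag, chr11:100574689-100574938 on the plus strand for Cnp and chr9:120149492-120149741 on the plus strand for Mobp. Capitals mark the MYRF and SOX letters on either strand.
Mog: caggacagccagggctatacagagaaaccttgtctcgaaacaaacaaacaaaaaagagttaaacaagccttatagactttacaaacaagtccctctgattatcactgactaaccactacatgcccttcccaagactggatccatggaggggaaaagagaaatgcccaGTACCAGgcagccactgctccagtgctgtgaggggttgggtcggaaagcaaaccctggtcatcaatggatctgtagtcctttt
Mag: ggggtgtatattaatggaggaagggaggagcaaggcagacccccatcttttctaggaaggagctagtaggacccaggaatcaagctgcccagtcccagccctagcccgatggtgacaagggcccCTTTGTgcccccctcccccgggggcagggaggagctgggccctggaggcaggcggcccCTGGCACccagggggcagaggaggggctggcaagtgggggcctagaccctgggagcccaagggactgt
Cnp: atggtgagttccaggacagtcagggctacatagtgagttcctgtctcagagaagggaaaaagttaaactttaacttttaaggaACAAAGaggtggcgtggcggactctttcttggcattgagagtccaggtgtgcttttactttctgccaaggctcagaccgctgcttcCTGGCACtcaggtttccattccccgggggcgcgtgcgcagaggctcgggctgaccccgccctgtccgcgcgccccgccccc
Mobp: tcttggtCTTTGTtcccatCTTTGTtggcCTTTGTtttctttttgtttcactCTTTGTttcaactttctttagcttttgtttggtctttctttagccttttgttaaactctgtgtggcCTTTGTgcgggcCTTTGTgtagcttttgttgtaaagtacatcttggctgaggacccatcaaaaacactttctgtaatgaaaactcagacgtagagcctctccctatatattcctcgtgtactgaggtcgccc
Mog, with the highest ratio to WT in D50A 3, and Mag, which was lower there, both carried the MYRF letters in the printed window. The first base of the match lay 83 bases before the start in Mog and 68 bases before it in Mag, and 81 bases before it in Cnp. Mobp held 6 matches to the SOX letters in its 250 bases and none to the MYRF letters.

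The libraries held 13675945 to 24802272 counts, and the 9 genes had 564 to 118061 counts each per library. Levels are given as CPM, the counts divided by library sizes after TMM scaling, which sets libraries to a common level over most genes. Cstf2 itself averaged 108 CPM in the mutants (SD 25.3, n = 5) and 127 CPM in the controls (SD 6.66, n = 3), and a missense change need not alter its count. D50A 3 stood apart from the other 7 libraries. Mitochondrially encoded genes took 11.9% of its counts and 4.08% to 5.14% of the others'. Its ratio to WT fell with transcript length, with a Spearman rho of -0.56 across 12438 genes, which are not independent replicates. The same rho was -0.31 to -0.16 in the other D50A libraries, which also fell with length. Each WT library against the other WT libraries gave -0.26 to 0.10. D50A 2 to 5 also differed from D50A 1 and WT in cerebellar transcripts: a list of 10 cerebellar genes had a mean of 5.53 to 5.99 log2 CPM in them, 1.99 in D50A 1 and 1.92 to 2.15 in WT. The genotype comparison of each of the 9 genes is therefore given with and without D50A 3, and the cerebellar values are set beside those that moved with them. Neither sex, litter nor batch is labelled, and p-values here rest on the spread among libraries of single mice.

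The 9 genes took 0.688% to 0.767% of all counts in WT, 0.783% to 0.878% in D50A 1, 2, 4 and 5, and 1.1% in D50A 3. Mbp alone gave 55.4% to 57.7% of the counts on the 9 genes in 7 libraries, but 43.7% in D50A 3. Levels of different genes can be set side by side only per length, here as CPM per kilobase of the longest annotated transcript. On this scale the WT order was Mbp at 826 ± 51.1 (SD, n = 3), Mobp at 419 ± 31, Cnp at 191 ± 4.58, Mal at 146 ± 1.09, Cldn11 at 145 ± 7.31, Mag at 103 ± 5.88, Mog at 71.3 ± 4.28, Ermn at 18.5 ± 0.454 and Opalin at 13.6 ± 1.49. The WT values of Mal, 144 to 147, lay inside those of Cldn11, 141 to 154, and no other neighbours in this order overlapped. Several of these genes have isoforms of very different length, such as the 16 annotated transcripts of Mbp, and the counts do not resolve them.

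In the comparison of the genotypes, 8 of the 9 genes had a higher estimate in D50A, as did 8171 of the 16810 genes tested. None of the 9 passed the test. edgeR's quasi-likelihood test over all genes gave adjusted p-values of 0.84 to 0.86 for the 9, and 0 of the 9 were called higher or lower, as were 0% of the 16810 genes in each direction. Before adjustment, 0 of the 9 and 420 of all genes had p below 0.05. DESeq2 called 0 of the 9, where it called 0.206% of genes higher and 0.0364% lower. limma-voom with sample quality weights called 1 of the 9, Ermn, where it called 1.87% of genes higher and 1.2% lower. Its weights were 0.027 for D50A 3, 0.355 for D50A 1 and 1.83 to 2.55 for the other libraries. It thus lay near a comparison of D50A 2, 4 and 5 with WT, in which genotype and cerebellar content cannot be told apart. The median log2 fold change of the 9 was 0.37, beside -0.01 over all genes tested. Without D50A 3 the median was 0.14, beside 0.00 over all genes, with 9 of 9 estimates above 0 and 0 of the 9 called, as were 0% of 16754 genes in each direction. Before adjustment, 3 of the 9, Mbp, Mobp and Cnp, and 1574 of all genes then had p below 0.05.

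**Figure D1:**
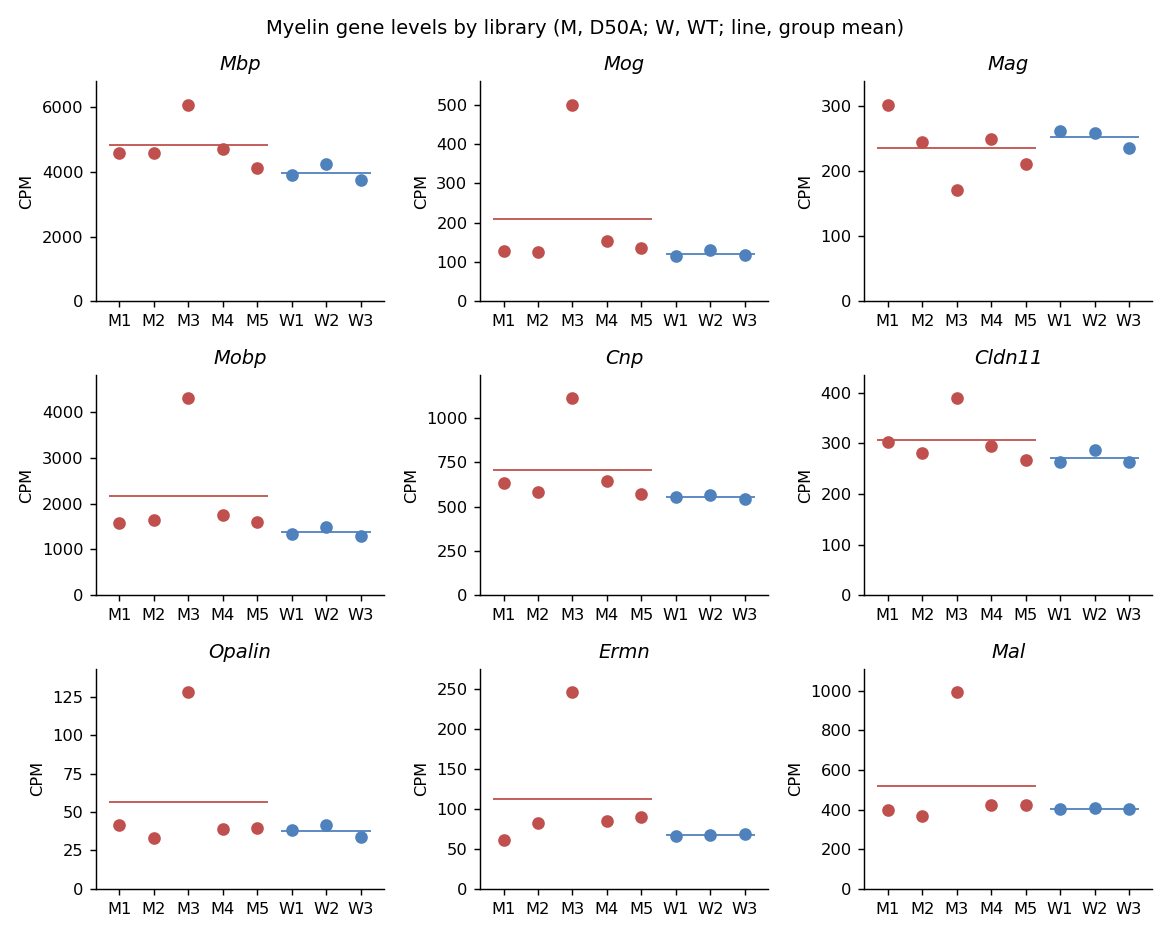
CPM of each of the 9 genes in the 8 libraries (M1 to M5, D50A 1 to 5 in red; W1 to W3, WT 1 to 3 in blue), with the group mean as a line. D50A 3 is the highest library in 8 panels and the lowest in the Mag panel, while the other 4 D50A libraries lie near the WT values.

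The basic proteins of compact myelin came from the 2 most abundant genes. Mbp (ENSMUSG00000041607, chromosome 18, 82475146 to 82585637 on the plus strand in mm10) encodes myelin basic protein, which holds the cytoplasmic faces of the membrane together. Mbp was at 4597, 4585, 6078, 4720 and 4130 CPM in D50A 1 to 5 and at 3898, 4236 and 3760 CPM in WT 1 to 3. The groups overlapped only through D50A 5 and WT 2. edgeR put Mbp at a log2 fold change of 0.28 ± 0.18 (SE, adjusted p = 0.84), which became 0.20 ± 0.07 once D50A 3 was set aside (adjusted p = 0.39).

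Mobp (ENSMUSG00000032517, chromosome 9, 120149707 to 120181484, plus strand) encodes a small basic protein of compact myelin. Its level was 1578, 1645, 4300, 1751 and 1588 CPM in D50A 1 to 5 and 1342, 1493 and 1300 CPM in WT 1 to 3. The lowest D50A value, 1578 CPM, was above the highest WT value, 1493 CPM. For Mobp, edgeR estimated a log2 fold change of 0.66 (95% interval -0.20 to 1.52, adjusted p = 0.84), and of 0.26 (0.11 to 0.42, adjusted p = 0.25) on setting D50A 3 aside. An exact permutation test of log2 CPM gave p = 0.0357 over the 8 libraries, the smallest p that 5 against 3 allows in a two-sided test, and 0.0571 over 7, the smallest for 4 against 3. It was run on each of the 9 genes, and these values are not adjusted. Mobp and Cnp were the 2 of the 9 genes whose groups did not overlap in this direction, against 3.22% of all genes tested, and 0 of the 9 did not overlap in the lower direction, against 4.24%. Setting D50A 3 aside left Mobp and Cnp as the 2, against 4.8% of genes higher and 5.78% lower.

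Cnp, Mag, Mog and Cldn11 encode proteins of the cytoplasmic channels, the tight junctions and the axon-facing and outer surfaces. Cnp (ENSMUSG00000006782, chromosome 11, 100574904 to 100591729, plus strand) encodes an enzyme that keeps the cytoplasmic channels of myelin open. Cnp was at 633, 584, 1111, 645 and 570 CPM in D50A 1 to 5 and at 556, 568 and 541 CPM in WT 1 to 3, so that D50A 5 and WT 2 lay next to each other without overlap. The edgeR estimate for Cnp was 0.35 ± 0.25 on the log2 scale (SE, adjusted p = 0.84), and 0.14 ± 0.06 with D50A 3 set aside (adjusted p = 0.52). Cnp shares 154 exonic bases with Dnajc7 on the other strand, and no source used here says whether counting used strand, so reads in those bases cannot be assigned.

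Mag (ENSMUSG00000036634, chromosome 7, 30899176 to 30914873, minus strand) encodes the sialic acid-binding adhesion protein that faces the axon. Its level was 302, 244, 170.7, 250 and 211 CPM in D50A 1 to 5 and 261, 259 and 235 CPM in WT 1 to 3. D50A 1 was the highest library and D50A 3 the lowest, D50A 5 was also below WT, and D50A 2 and 4 lay within the WT range. For Mag, edgeR gave a log2 fold change of -0.10 (95% interval -0.55 to 0.35, adjusted p = 0.86), and of 0.01 (-0.22 to 0.24, adjusted p = 0.98) with D50A 3 set aside. Mag has the highest GC content of the 9, 57.6% of its longest transcript, and D50A 1 had the highest Spearman rho between its difference from WT and GC content, 0.66 across 12438 genes, against -0.45 to 0.36 in the other libraries. The part of that trend in the Mag values was not tested.

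Mog (ENSMUSG00000076439, chromosome 17, 37010743 to 37023398, minus strand) encodes an immunoglobulin-domain glycoprotein of the outermost myelin surface. Mog was at 128, 126, 501, 154 and 136 CPM in D50A 1 to 5 and at 116, 130 and 119 CPM in WT 1 to 3. D50A 1 and D50A 2 lay within the WT range and D50A 3 was 4.12 times the WT mean. Mog had an edgeR estimate of 0.78 ± 0.50 on the log2 scale (SE, adjusted p = 0.84), and of 0.17 ± 0.09 with D50A 3 set aside (adjusted p = 0.56).

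Cldn11 (ENSMUSG00000037625, chromosome 3, 31149920 to 31164324, plus strand) encodes the claudin that forms tight junctions between myelin layers. Its level was 304, 280, 389, 295 and 268 CPM in D50A 1 to 5 and 264, 288 and 264 CPM in WT 1 to 3, and the groups overlapped. edgeR estimated 0.18 ± 0.17 for Cldn11 on the log2 scale (SE, adjusted p = 0.84), and 0.09 ± 0.07 with D50A 3 set aside (adjusted p = 0.74).

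The 3 remaining genes encode membrane and cytoskeletal proteins of the maturing and mature oligodendrocyte. Opalin (ENSMUSG00000050121, chromosome 19, 41061710 to 41077113, minus strand) encodes a sialylated transmembrane protein of central myelin. Opalin was at 41.4, 33.3, 128, 38.8 and 39.8 CPM in D50A 1 to 5 and at 38.6, 41.8 and 33.5 CPM in WT 1 to 3. Apart from D50A 3, the D50A libraries ran from 33.3 to 41.4 CPM and WT from 33.5 to 41.8 CPM. edgeR estimated 0.56 ± 0.46 for Opalin on the log2 scale (SE, adjusted p = 0.84), and 0.02 (95% interval -0.19 to 0.24, adjusted p = 0.96) with D50A 3 set aside.

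Mal (ENSMUSG00000027375, chromosome 2, 127633226 to 127656695, minus strand) encodes a proteolipid of membrane rafts involved in sorting proteins to myelin. Its level was 396, 369, 992, 421 and 424 CPM in D50A 1 to 5 and 404, 407 and 401 CPM in WT 1 to 3. D50A 1 and 2 lay below the WT libraries and D50A 3, 4 and 5 above them. edgeR estimated 0.37 ± 0.35 for Mal on the log2 scale (SE, adjusted p = 0.84). With D50A 3 set aside it estimated 0.01 (95% interval -0.14 to 0.15, adjusted p = 0.98), so a change of more than 1.11-fold upward or to below 0.908 of the WT level lies outside that interval.

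Ermn (ENSMUSG00000026830, chromosome 2, 58045113 to 58052864, minus strand) encodes ermin, an actin-binding protein of mature oligodendrocytes. Ermn was at 60.7, 82.6, 246, 84.6 and 90.1 CPM in D50A 1 to 5 and at 65.6, 67.6 and 68.8 CPM in WT 1 to 3. D50A 2 to 5 all lay above WT, and D50A 1 lay below it. For Ermn the edgeR estimate was 0.74 ± 0.44 on the log2 scale (SE, adjusted p = 0.84), and 0.25 ± 0.12 with D50A 3 set aside (adjusted p = 0.56). Ermn also shares 237 exonic bases with Galnt5 on the other strand, a gene with 114 counts over the 8 libraries.

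**Figure D2:**
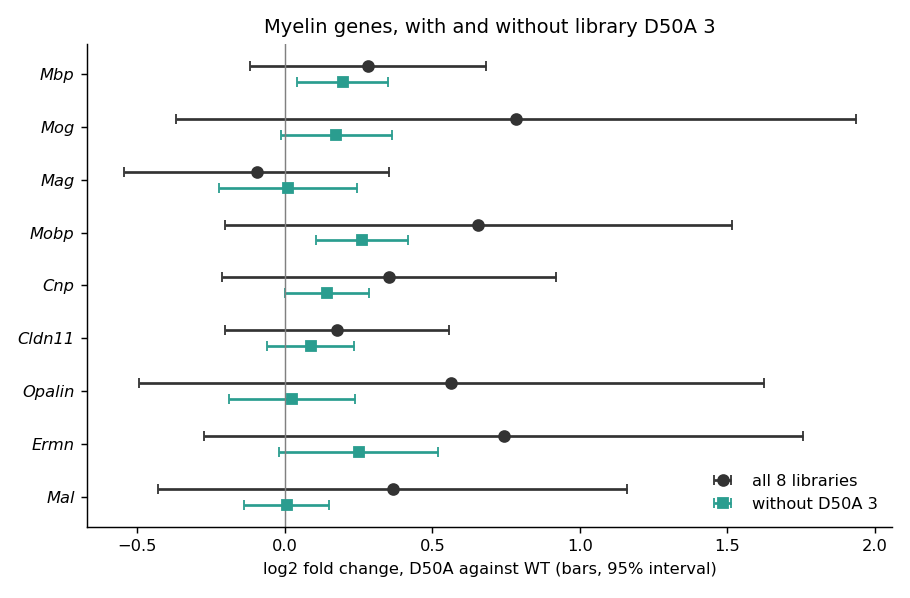
Log2 fold change of D50A against WT for each gene from edgeR's quasi-likelihood fit, with 95% intervals, over all 8 libraries (black circles) and without D50A 3 (green squares). All 9 intervals over 8 libraries include 0, and without D50A 3 the estimates lie between 0.01 and 0.26 with the intervals of Mbp, Mobp and Cnp above 0.

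The Ermn values divided the libraries in the way the cerebellar transcripts did. In the libraries with high cerebellar transcripts other than D50A 3, Ermn was at 82.6 to 90.1 CPM, and in the 4 libraries with low cerebellar transcripts, D50A 1 and WT 1 to 3, it was at 60.7 to 68.8 CPM. Leaving out D50A 1 and D50A 3 together, edgeR called 2 of the 9 genes higher, Ermn and Mobp, where 3.36% of 16591 genes were called higher, and 0 of the 9 lower, where 3.06% were. Ermn was then at 0.36 ± 0.06 (SE, edgeR adjusted p = 0.0013) and Mobp at 0.29 ± 0.06 (SE, edgeR adjusted p = 0.012) on the log2 scale. The groups did not overlap for 3 of the 9, Mobp, Cnp and Ermn, all higher in D50A, where 11.5% of genes were higher without overlap and 13.8% lower. That comparison sets 3 libraries with high cerebellar transcripts against 3 with low ones, so genotype and cerebellar content cannot be told apart in it.

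Within the libraries with low cerebellar transcripts, D50A 1 alone can be set against WT, a comparison added after seeing the data in which the lone D50A library is assumed to vary like the WT libraries. On the log2 scale edgeR estimated 0.19 ± 0.08 for Mobp (SE, adjusted p = 0.19) and 0.21 ± 0.07 for Mbp (adjusted p = 0.086). It estimated 0.26 ± 0.09 for Mag (adjusted p = 0.095) and -0.15 ± 0.08 for Ermn (adjusted p = 0.32). Of the 9 genes 0 were called there, where 0.885% of 17282 genes were called higher and 5.98% lower. By level, Ermn was below every WT library in D50A 1 and above every one in D50A 2, 4 and 5, while Mobp was above every one in all 4. No library with the WT genotype had high cerebellar transcripts, so the other side of this comparison could not be made. 

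**Figure D3:**
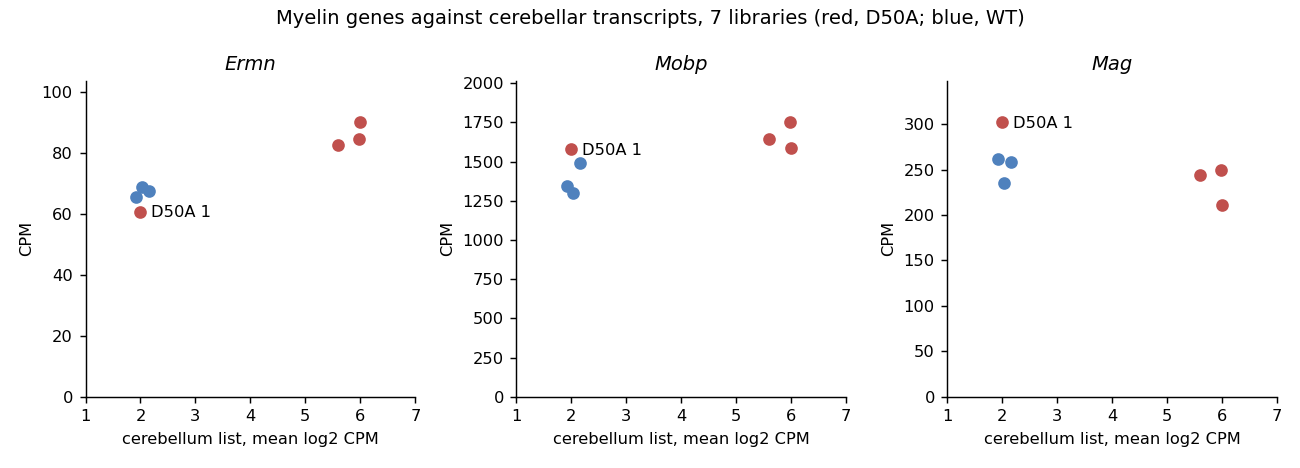
CPM of Ermn, Mobp and Mag against the mean log2 CPM of the 10 cerebellar genes in the 7 libraries other than D50A 3 (red, D50A; blue, WT). The Ermn points split by cerebellar transcripts, with D50A 1 at 60.7 CPM beside WT, whereas D50A 1 lies with the other D50A libraries for Mobp and above every library for Mag.

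D50A 3 changed the proportions among the 9 genes as well as their level. Its level was 4.12 times the WT mean for Mog, 3.65 for Ermn, 3.37 for Opalin, 3.12 for Mobp, 2.46 for Mal, 2 for Cnp, 1.53 for Mbp, 1.43 for Cldn11 and 0.678 for Mag. D50A 3 was the highest of the 8 libraries for 8 of the 9 genes, where it was the highest for 40% of all genes tested, and the lowest for Mag, where it was the lowest for 44.4%. It lay at least 2-fold above the WT mean for 6 of the 9, against 20.1% of genes. Ratios between genes of the same library need no scaling. For Mag, the log2 ratio to the mean of the 9 genes was -1.99 in D50A 3 and lay from -0.64 to -0.15 elsewhere. That of Mog was -0.44 in D50A 3 against -1.40 to -1.20. That of Mbp was 3.17 in D50A 3 against 3.66 to 3.82. In D50A 1, 2, 4 and 5 the ratio of Mobp, 2.23 to 2.35, lay above that in WT, 2.13 to 2.20, and for the other 8 genes these libraries overlapped WT. Taken relative to Mbp alone, Mobp overlapped too, at -1.54 to -1.38 against -1.54 to -1.50.

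Transcript lengths of the 9 genes were set beside their ratios in D50A 3, since the ratios of genes in general fell with length there. The longest annotated transcript was 1704 bases for Mog, 1870 for Cldn11, 2434 for Mag, 2778 for Mal, 2794 for Opalin, 2904 for Cnp, 3286 for Mobp, 3635 for Ermn and 4797 for Mbp. Mog, the shortest, had the largest ratio to WT and Mbp, the longest, the third smallest. Cldn11 and Mag, next in length after Mog, had the smallest ratios, and Ermn, the second longest, had a larger ratio than Mal, Opalin or Cnp. The part of transcript length or mitochondrial share in these values was not tested. Of all genes tested, 4.44% had a larger ratio to WT in D50A 3 than Mog, 29.5% a larger one than Mbp and 62.7% a larger one than Mag.

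**Figure D4:**
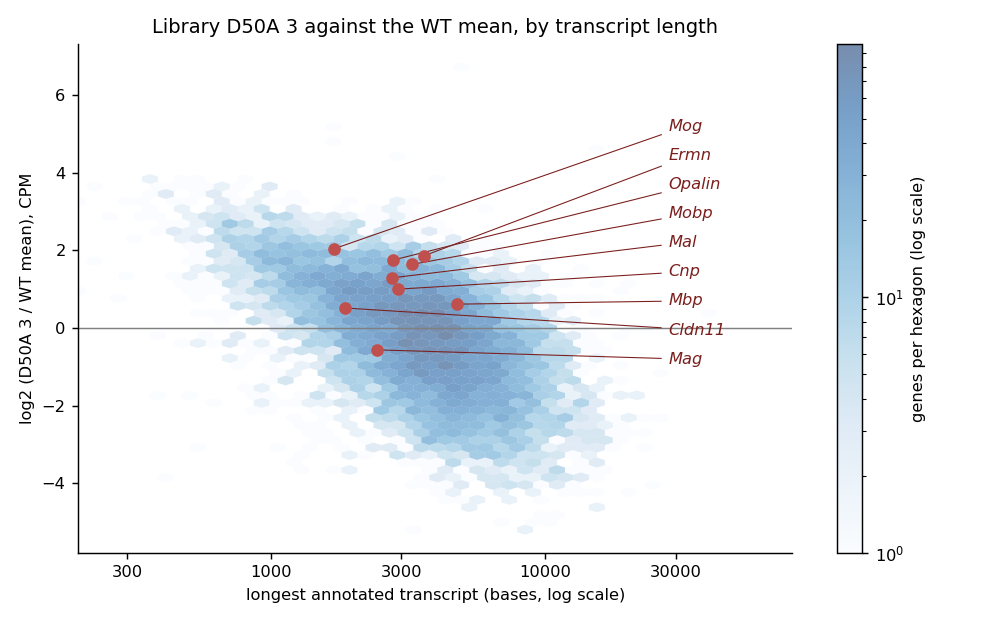
Log2 ratio of D50A 3 to the WT mean against the length of the longest annotated transcript, with all 12438 genes above a mean of 2 log2 CPM as shaded hexagons and the 9 myelin genes as labelled red points. The cloud falls with length, and the 9 points spread from 2.04 (Mog) to -0.56 (Mag) over lengths of 1704 to 4797 bases.

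Across the 8 libraries the 10 genes most like the mean of the 9, by Pearson correlation of log2 CPM, were Sf3b5, AI413582, Ndufs7, Psmb2, Tsen34, Serf2, 1810022K09Rik, Cltb, Krtcap2 and Hist3h2ba, with r from 0.998 to 0.999. All points share the libraries and D50A 3 spans most of the range, so these values describe that library. Over the 7 libraries without it the highest r was 0.978, for Sf3b5, followed by Arhgef10l, AI413582, Psmb2 and then Ppp1r14a, a gene of mature oligodendrocytes, with 0.972. The next were Ndufs7, Lamp1, Cyc1, Slc35b2 and Prss36, the last with 0.959. Among the 9 genes over these 7 libraries, Mobp and Mbp had the highest r with each other, 0.924, and Ermn and Mag the lowest, -0.78.

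Other genes of mature oligodendrocytes were compared from lists of the lineage. Of 33 tested mature oligodendrocyte genes outside the 9, 27 had a higher estimate in D50A, where 8171 of all 16810 genes did. edgeR called 0 of the 33, with a median log2 fold change of 0.27, and 0.11 without D50A 3. Klk6, a secreted serine protease gene, stood at 7.9, 13.9, 24.8, 11.7 and 8.8 CPM in D50A 1 to 5 and at 7.22, 7.7 and 5.46 CPM in WT 1 to 3. Gjb1, which encodes a gap junction protein of myelin, was at 22.5, 23.9, 74.1, 29.3 and 22.5 CPM in D50A and at 19.1, 20.6 and 17.7 CPM in WT. Neither gene overlapped between the groups, as for 3.22% of genes tested in the higher direction, and 4.8% without D50A 3. Setting D50A 3 aside gave edgeR estimates of 0.64 for Klk6 (adjusted p = 0.34) and 0.37 for Gjb1 (adjusted p = 0.29) on the log2 scale. Klk6 and Gjb1 were the 2 of the 33 that edgeR called higher without D50A 1 and D50A 3, where 3.36% of genes were. Apod, encoding a lipid-binding apolipoprotein, was at 351 CPM in D50A 3, 120 to 137 CPM in the other D50A libraries and 99 to 116 CPM in WT. Ppp1r14a, a phosphatase inhibitor gene, was at 120 CPM in D50A 3, 27.3 to 36.6 CPM in the other D50A libraries and 20 to 28.4 CPM in WT.

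Among 10 genes of myelin lipid synthesis the median estimate was 0.07 on the log2 scale, or 0.05 without D50A 3, and 0 were called in either fit. Most of these 10, Ugt8a and Aspa among them, also belong to the mature oligodendrocyte list above, so the lists are not separate observations. Ugt8a, which encodes the enzyme that makes the myelin lipid galactosylceramide, was at 99.6, 122, 219, 135 and 118 CPM in D50A 1 to 5 and at 107, 115 and 110 CPM in WT. Aspa, which releases acetate from N-acetylaspartate for lipid synthesis, was at 90.1 CPM in D50A 3, 26.8 to 34.1 CPM in the other D50A libraries and 27 to 29.3 CPM in WT. Elovl1, a fatty acid elongase gene, was lower in every D50A library, at 10.6 to 21.1 CPM against 21.3 to 22.2 CPM in WT, and Sptlc2, a subunit gene of the first enzyme of sphingolipid synthesis, was at 38.6 to 44.5 CPM against 46 to 47.4 CPM. Elovl1 and Sptlc2 belong to the 4.24% of genes tested whose groups did not overlap in that direction. Setting D50A 3 aside left edgeR estimates of -0.16 for Elovl1 (adjusted p = 0.65) and -0.09 for Sptlc2 (adjusted p = 0.69).

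The transcription factors of the lineage stood on both sides of WT in D50A 3. Their mean was 4.69 log2 CPM there, 5.28 to 5.46 in the other D50A libraries and 5.34 to 5.43 in WT. Their summed level was 1176, 972 to 1042 and 1113 to 1137 CPM in the same order. Zfp365 (named after its values were seen) gave the most counts to that sum, in D50A 3 8725 of 12711. The summed level there therefore rested mostly on 1 gene. Of 12 tested, 2 had a higher estimate in D50A, and the median log2 fold change was -0.16, or -0.02 without D50A 3, with 0 called in either fit. Nkx6-2, a homeobox gene of differentiating oligodendrocytes, was at 35 CPM in D50A 3, 16.9 to 20.5 CPM in the other D50A libraries and 15.4 to 18.2 CPM in WT. Nkx2-2, another homeobox gene of the lineage, was at 7.03 CPM in D50A 3, 4.1 to 6.85 CPM in the other D50A libraries and 4.25 to 5.1 CPM in WT. Zeb2, a zinc finger factor of differentiation, was at 113, 125 to 148 and 144 to 162 CPM in the same order. Olig2, the basic helix-loop-helix factor that specifies the lineage, was at 12.6 CPM in D50A 3, 29 to 34.4 CPM in the other D50A libraries and 32.9 to 34.9 CPM in WT. Myrf and Sox10, the regulators whose letters were searched in the promoters, were named after their values were seen. Myrf was at 83.1, 64.3, 8.05, 63.3 and 58.5 CPM in D50A 1 to 5 and at 74.5, 69.5 and 60.8 CPM in WT 1 to 3. Sox10 was at 70.2, 61.5, 11.9, 58.2 and 50.2 CPM in D50A and at 64.9, 64 and 52 CPM in WT. In D50A 3 Myrf therefore stood at 0.118 and Sox10 at 0.198 of the WT mean, while 8 of the 9 myelin genes stood above it. That library lay at least 2-fold below the WT mean for 27.3% of all genes tested. The part of transcript length or mitochondrial share in the Myrf and Sox10 values was not tested. In the other 4 D50A libraries Myrf and Sox10 both overlapped WT.

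Earlier stages and the axonal partners of myelin are given for comparison. For the 9 tested oligodendrocyte precursor genes the median estimate was -0.35 on the log2 scale, or -0.19 without D50A 3, with 0 called in either fit. Without D50A 1 and D50A 3, 5 of the 9 were called lower, where 3.06% of genes were. These were Pdgfra, Cspg4, Gpr17 and, named after their values were seen, Cacng4 and Tnr. Pdgfra, the growth factor receptor of precursors, stood at 62.7, 58.2, 34.9, 56.1 and 54.8 CPM in D50A 1 to 5 and at 73.7, 71.7 and 72.6 CPM in WT 1 to 3. Cspg4, the NG2 proteoglycan gene, was at 6.38 CPM in D50A 3, 12 to 20.8 CPM in the other D50A libraries and 18 to 21.6 CPM in WT. In the same order Vcan, encoding the proteoglycan versican, was at 16.4, 23.3 to 28.9 and 27.7 to 32 CPM. Ptprz1, a receptor phosphatase gene, was at 99.3, 167.1 to 207 and 208 to 238 CPM. For 10 genes of newly formed oligodendrocytes the median was -0.10, or -0.01 without D50A 3, with 0 called in either fit. They summed to 644 CPM in D50A 3, 465 to 520 CPM in the other D50A libraries and 476 to 506 CPM in WT, with the most counts from Bcas1. Without D50A 1 and D50A 3, 2 of these 10, Itpr2 and Gpr17, were called lower, where 3.06% of genes were. Gpr17 is in both this list and the precursor list. Itpr2, an intracellular calcium channel gene, was at 15.2 CPM in D50A 3, 24.6 to 27 CPM in the other D50A libraries and 30.8 to 33.6 CPM in WT. It belongs to the 4.24% of genes tested that were lower in D50A without overlap between the groups. Enpp6, a choline phosphodiesterase gene, was at 27.3, 11.7 to 15.5 and 11.3 to 14.6 CPM in the same order. Bcas1, which marks oligodendrocytes as they begin to myelinate, reached 446 CPM in D50A 3, against 160 to 188 CPM in the other D50A libraries and 162 to 178 CPM in WT. Gpr17, a receptor of committed precursors, stood at 19.8 CPM, 53.2 to 71.4 CPM and 63.7 to 68.9 CPM in the same order. Genes of the axon-glia junction and the node of Ranvier, 13 tested, had a median of -0.26, and -0.04 without D50A 3. Over 8 libraries 0 of the 13 estimates were above 0, where 8171 of all 16810 genes were. Ank3, which encodes the ankyrin that anchors sodium channels at the node, was at 121 CPM in D50A 3, 443 to 472 CPM in the other D50A libraries and 478 to 513 CPM in WT. Nrcam, an adhesion gene of the node, was at 128, 299.8 to 335 and 359 to 376 CPM in the same order. It was the 1 of the 13 called lower without D50A 1 and D50A 3, where 3.06% of genes were. Genotype and cerebellar content cannot be told apart in these calls. Cntn1, encoding the paranodal contactin, was at 315, 340 to 414 and 421 to 447 CPM. Cntnap2, a gene of the region beside the paranode, was at 71.8, 78 to 98.7 and 97.8 to 107 CPM.

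**Figure D5:**
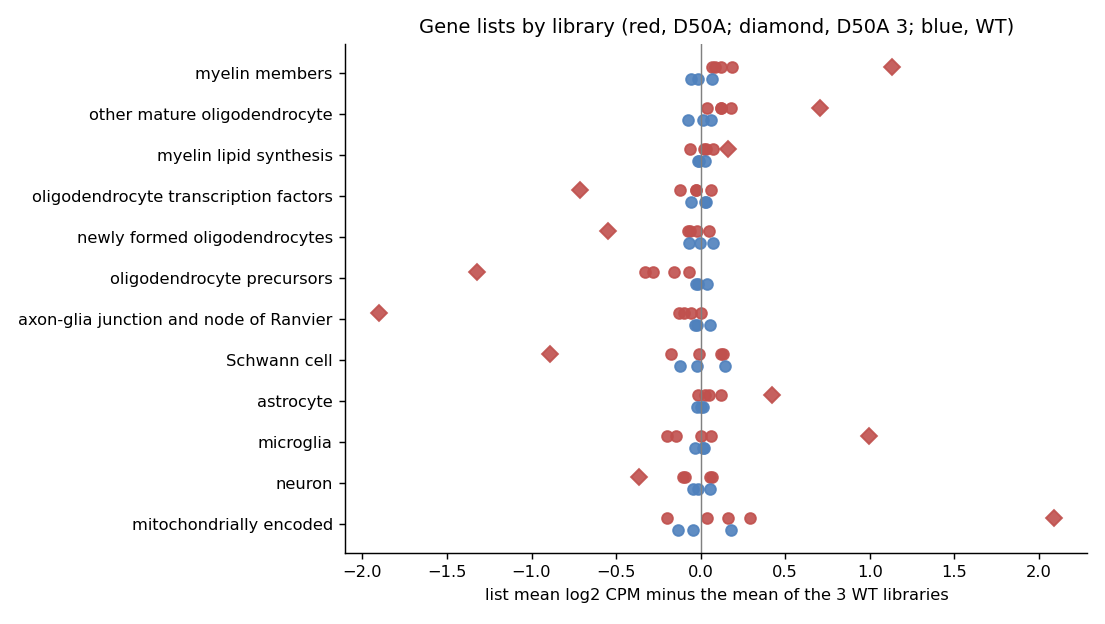
Mean log2 CPM of 12 gene lists minus its mean over the 3 WT libraries, 1 point per library (red circles, D50A 1, 2, 4 and 5; red diamond, D50A 3; blue circles, WT). D50A 3 lies to the right for myelin, other mature oligodendrocyte, lipid synthesis, astrocyte, microglia and mitochondrially encoded genes and to the left for transcription factors, newly formed oligodendrocytes, precursors, axon-glia junction, Schwann cell and neuron genes. By summed CPM, which is not drawn, D50A 3 lay on the other side of WT for transcription factors, newly formed oligodendrocytes and astrocytes. The other 4 D50A libraries overlap WT in 11 lists and lie below every WT library for precursors.

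Marker lists of other cells were read in the same libraries. Schwann cell genes, the myelinating cells of peripheral nerve, summed to 146.9 to 153.1 CPM in WT, 141.1 to 152.7 CPM in D50A 1, 2, 4 and 5 and 81 CPM in D50A 3. Drp2 had the most counts of this list. It gave 2271 of the 3183 counts behind the sum in WT 1, but only 208 of 876 in D50A 3. The lower sum in D50A 3 therefore rested on that gene. The mean of the list was also lower there, 1.63 log2 CPM against 2.34 to 2.65 for the other D50A libraries and 2.40 to 2.66 for WT. Among the other genes, Pmp22 was higher and Prx lower, as described further on. Of 10 listed, 8 were tested, and at most 1 of them was at 0 in a library. Gldn was at 1.39, 1.96 to 2.28 and 1.87 to 3.15 CPM in D50A 3, the other D50A libraries and WT, and Fxyd3 at 0.37, 0.939 to 1.22 and 0.535 to 0.861 CPM. Microglia genes had a mean of 5.81 log2 CPM in D50A 3, 4.62 to 4.88 in the other D50A libraries and 4.79 to 4.84 in WT. These genes did not move together, and 7 of the 10 had a higher estimate in D50A. Csf1r gave 358 of the 7608 microglia counts in D50A 3, but 1363 of 6765 in WT 1. Cx3cr1, named after its values were seen, had 46.4 CPM in D50A 3, within the WT range of 45.5 to 47.3 CPM. The 10 astrocyte genes had a mean of 8.04 log2 CPM in D50A 3, 7.6 to 7.74 in the other D50A libraries and 7.6 to 7.63 in WT. The astrocyte genes summed to 4593, 4498 to 4638 and 4730 to 4877 CPM, so by sum every D50A library lay below WT. Slc1a2 alone was at 760, 2181 to 2433 and 2638 to 2800 CPM, while 7 of the 10 had a higher estimate in D50A. Neuron genes had a mean of 8.49, 8.75 to 8.92 and 8.81 to 8.91. These genes went both ways, and 4 of the 10 had a higher estimate in D50A. Nefl was at 505, 251 to 271 and 256 to 268 CPM in the same order. Map2 was at 722, 965 to 1113 and 1198 to 1307 CPM. Both were named after their values were seen. The 10 cortex and hippocampus genes had a mean of 4.51, 5.58 to 5.82 and 5.87 to 5.92, so that all 5 D50A libraries lay below WT. Of these 10, 0 were called with or without D50A 3. Without D50A 1 and D50A 3, 4 were called lower, where 3.06% of genes were. Genotype and cerebellar content cannot be told apart in that comparison. The 8 endothelium genes had a mean of 4.05, 4.67 to 5.01 and 4.69 to 4.96. Over the 8 libraries the genes with the most counts were Csf1r for microglia, Slc1a2 for astrocytes, Snap25 for neurons, Slc17a7 for cortex and hippocampus, Slco1a4 for endothelium, Zic1 for cerebellum and mt-Co1 for mitochondrially encoded genes. None of the microglia, astrocyte, neuron, cortex and hippocampus or endothelium genes was at 0 in any library. Brainstem and spinal Hox genes were too low to be tested, and summed to 0.742 to 2.03 CPM in the mutants and at most 0.506 CPM in the controls. The part of tissue content in the myelin gene values was not tested.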

How the data were processed

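Poly(A)-selected RNA of 8 total brain samples was sequenced, 1 library per mouse. The deposited values are raw read counts by gene, without normalization. CASAVA 1.8, STAR 2.5, HTSeq 0.6.1 and DESeq2 2 are named, with mm10, per the submitters' processing notes, and no source used here names the annotation release or strand use. Groups came from the genotype label. Counts were tested with edgeR 4.0.16 in R 4.3.3 (quasi-likelihood, filterByExpr, TMM, no covariate, all 8 libraries, Benjamini-Hochberg over all genes tested, threshold 0.05). The SE is the log2 fold change over the square root of F, and a prior count of 2 was added for log2 CPM. The members and gene lists were chosen with earlier results of these data known, so no list was tested as a set. Named genes are the 9 members, Cstf2, the 4 genes with the smallest unadjusted p of each lineage list, the gene with the most counts of each list of other cells and the 10 genes most like the members' mean over 8 and over 7 libraries; others are said to be named later, and the 10 most alike have a mean above 2 log2 CPM. Alternatives were DESeq2 1.42.0, limma 3.58.1 voom with sample weights, other scaling, filters and thresholds, and libraries left out. Positions, transcript lengths and GC content came from GENCODE M21 (mm10).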

Additional observations from a re-analysis of the deposited data

Results flagged for a closer look

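Among the 5 D50A libraries, D50A 3 lay far from the other 4 for 6 of the 9 myelin genes and for the share of mitochondrially encoded counts. In each case the gap from D50A 3 to the nearest of the others, divided by the whole range, was above Dixon's 95% critical value of 0.71 for 5 samples, which chance passes in about 1 group in 20. Mog was at 500.8 CPM against 153.7 CPM in the next library, and Mobp at 4300 CPM against 1751 CPM. Cnp was at 1111 CPM against 644.6 CPM, Opalin at 127.9 CPM against 41.4 CPM, Ermn at 245.6 CPM against 90.1 CPM and Mal at 992.1 CPM against 424.1 CPM. The share of mitochondrially encoded counts was 11.86% against 5.14%. These flags share 1 library and are not independent. Mbp, Cldn11 and Mag were not flagged, and D50A 3 was the lowest library for Mag.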

How the results depend on the processing

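Over all genes edgeR called 0 higher and 0 lower. DESeq2 called 34 and 6, limma-voom with sample weights 315 and 202, edgeR without D50A 1 and D50A 3 558 and 507, and edgeR with D50A 1 alone against WT, added after seeing the data, 153 and 1033. Leaving out 1 library gave 0 to 26 higher, the 26 without D50A 1, and 0 lower. Of the 9 genes 0 were called, but limma-voom called 1, Ermn (log2 fold change 0.33, adjusted p = 0.044), and edgeR without D50A 1 and D50A 3 called 2. limma-voom gave D50A 1 and D50A 3 the smallest weights, so these 2 alternatives are alike. Their median log2 fold change ran from 0.14 (without D50A 3) to 0.48 (without D50A 1) with 1 library left out. Of the single-gene values under an alternative, 153 kept direction and call, 3 gained a call, and 6 changed sign. Those were Opalin at -0.025 by limma-voom and -0.013 without D50A 1 and D50A 3, Mag at 0.011 without D50A 3, and Mag at 0.26, Ermn at -0.15 and Mal at -0.033 in D50A 1 alone; the cause was not tested. The log2 ratio of Mag in D50A 3 minus the median of the other 7 libraries was -1.65 against the mean of the 9 genes and -1.12 against Mbp, and that of Cnp was -0.14 and 0.41. With 1 library left out, Mag ran from -0.18 to 0.011. No paired analysis was possible because library numbers follow the order of deposit. The 9 genes have at least 564 counts in each library.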

Other observations

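S100b, listed here as an astrocyte gene but also made by myelinating oligodendrocytes, was singled out after its values were seen. It was at 116, 156, 626, 191 and 170 CPM in D50A 1 to 5 and at 101, 120 and 110 CPM in WT 1 to 3. D50A 1 lay within the WT range and D50A 2 to 5 above it, the same split by cerebellar transcripts as for Ermn. The log2 fold change of S100b was 1.19 with an SE of 0.56 over 8 libraries (edgeR adjusted p = 0.84), 0.53 without D50A 3 (adjusted p = 0.27) and 0.66 without D50A 1 and D50A 3 (edgeR adjusted p = 8.2e-05). In D50A 1 alone against WT it was 0.07 (edgeR adjusted p = 0.77).

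Pmp22 and Prx, both known from peripheral myelin, lay on opposite sides of WT. Pmp22 ran from 26.7 to 37.2 CPM in the mutants, above the WT values of 20.4 to 25.1 CPM. Prx, encoding periaxin, ran from 0.278 to 2.88 CPM in the mutants, below the WT values of 3.04 to 3.27 CPM. In both genes every D50A library lay on one side of every WT library, as for 3.22% of genes tested in the higher and 4.24% in the lower direction, and neither passed (edgeR adjusted p = 0.84 for both). Setting D50A 3 aside gave edgeR estimates of 0.31 for Pmp22 (adjusted p = 0.26) and -0.54 for Prx (adjusted p = 0.41) on the log2 scale.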
